A study of Mus musculus with 12 samples.

Results

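Polycomb complex subunits were followed in RNA from mouse cardiac stem cell cultures of 2 labelled genotypes, wild-type and c-kitCre. The 9 genes, Ezh1, Ezh2, Eed, Suz12, Jarid2, Cbx2, Cbx7, Cbx8 and Bmi1, were taken by symbol from a table of 34174 genes. All 9 were found, and all 9 passed the filter on low values that left 24151 genes for testing. Jarid2 was 5.47-fold higher in the cultures labelled c-kitCre and Cbx7 was 5.08-fold lower, while the core Polycomb gene Ezh2 stood at 1572 ± 173 and 1586 ± 210 scaled reads (SD, n = 3 cultures per group). Ezh1 also rose, and Bmi1 and Cbx2 fell. Over 17 alternatives, each with other processing or 1 culture left out, Ezh1 no longer passed the test in 6, Cbx2 in 14 and Bmi1 in 1. A scaled read is 1 unit of the deposited raw value after scaling by the culture's factor, which the authors' normalized values contain.

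Polycomb proteins keep developmental genes silent through 2 kinds of complex. Polycomb repressive complex 2 (PRC2) methylates lysine 27 of histone H3 through its catalytic subunit EZH2 or the weaker EZH1, which work only in association with EED, which binds the finished mark, and SUZ12, the scaffold. JARID2, a member of the Jumonji family without demethylase activity, is an accessory subunit that helps PRC2 to bind chromatin and stimulates it. Canonical PRC1 reads the mark through a chromobox protein, such as CBX2, CBX6, CBX7 or CBX8, and holds a ring finger protein of the PCGF family, such as BMI1 (also called PCGF4), beside the ubiquitin ligase RING1 or RNF2. In the mouse heart, Polycomb proteins are required for normal development, and in many cell types BMI1 and CBX7 sustain proliferation by repressing the Cdkn2a locus.

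The cultures were C57BL/6 cardiac stem cells, in the labels' terms, grown on gelatin in serum-containing medium. The wild-type group held 3 cultures, and the c-kitCre group held 3 cultures from animals in which Cre recombinase was placed at the Kit locus, whose promoter drives it. Neither the age nor the sex of the animals, the copy number of the allele, nor whether numbered cultures came from separate animals is stated in the labels, so the p-values measure the spread between these cultures. Each culture had 2 libraries, which the deposited table merges into 1 value. The question was how the transcriptomes of these cells differ between the genotypes.

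Raw values summed to between 22371439 and 35963488 per culture. Kit, the targeted gene, stood at 2.03 ± 1.18 scaled reads in the wild-type cultures and at 1691 ± 76.4 in the c-kitCre cultures. A level near 0 in the group with the unmodified gene and a high level in the knock-in group go against the labels, so the groups are called "labelled wild-type" and "labelled c-kitCre", and directions below rest on those labels. The 9 cardiac progenitor markers summed to 4829 to 6283 scaled reads under the wild-type label and to 13708 to 15775 under the c-kitCre label. Of these 9, 6 rose, and most of the rise in the sum is Pdgfra (580 ± 420 to 8077 ± 945), which is also on the fibroblast list. Ly6a fell from 3002 ± 272 to 729 ± 45.8, and Nkx2-5 and Abcg2 did not pass. Cardiomyocyte markers (8 genes) summed to 1485 to 3626 and 155 to 172, a sum that is nearly all Tnnt2 (2194 ± 1224 and 122 ± 2.43). Of the others, Ryr2 rose from 2.85 ± 0.93 to 19.4 ± 8.20, Myh6, Tnni3, Actc1 and Nppa did not pass, and Myh7 and Myl7 lay under the floor of 4.41 scaled reads in all 6 cultures. Fibroblast markers (8 genes, Tcf21 under the floor) summed to 31601 to 34361 and 163692 to 233654, smooth muscle markers (5 genes) to 234 to 339 and 1735 to 3818, and mesothelial markers (5 genes) to 6344 to 7925 and 115 to 169.6. The mesothelial sum follows Msln alone (6950 ± 832 and 43.5 ± 22.8), whereas Wt1 rose from 8.404 ± 4.61 to 75.6 ± 4.85, and Upk3b, Lrrn4 and Upk1b did not pass. Of the 5 smooth muscle markers, 3 rose and 2 did not pass, where 35.5% of all genes tested passed. Endothelial markers (6 genes) summed to 505 to 850.1 and 883 to 1048. Of these 6, 2 rose (Cdh5 and Tie1) and 4 did not pass, and the Tie1 call was lost in 3 omissions of a culture. Leukocyte markers (5 genes, Ptprc and Adgre1 under the floor) summed to 136 to 156 and 176 to 350.1. Of the 3 leukocyte markers tested, 0 passed, and all 6 mast cell markers lay under the floor. Apart from that of the mast cell markers, these marker sums differed between the same 2 groups as every difference below, and their part in the results was not tested. In such bulk RNA, fewer cells of a type and less RNA per cell cannot be told apart.

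The genotype difference was tested with limma on log2 scaled reads, two-sided, with p-values adjusted over all 24151 genes and a threshold of 0.05. Of the 9 Polycomb genes, 2 rose (Jarid2 and Ezh1), 3 fell (Cbx7, Bmi1 and Cbx2) and 4 did not pass (Ezh2, Eed, Suz12 and Cbx8). Among all genes tested, 35.5% passed, 16.2% being higher and 19.3% lower under the c-kitCre label. Among the 10631 genes averaging 200 scaled reads or more, the range in which all 9 lie, 51% passed, so the count of 5 of 9 is close to this background. In 7 of the 9 genes the values of the groups did not overlap, as in 53.2% of all genes tested. The median log2 difference was -0.25 over the 9 genes and 0.04 over all genes, and the median size, whatever its direction, was 0.41 and 0.60. A larger change than that of Jarid2 was seen in 7.30% of tested genes, and than that of Cbx7 in 8.08%. For Bmi1 and Ezh1 these shares were 35.7% and 37.0%, and for Cbx2, Eed, Cbx8, Suz12 and Ezh2 they ran from 61.8% to 98.2%. The scaling matters for the balance of directions. All genes gave 3907 higher and 4671 lower calls as scaled by the authors, 2821 and 8605 after centring on the median of all genes, and 5488 and 3794 after centring on genes that average 50 scaled reads or more, with median log2 differences over all genes of 0.04, -0.31 and 0.26. Under the first of these centrings 1 of the 9 Polycomb genes was higher and 5 were lower.

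**Figure D1:**
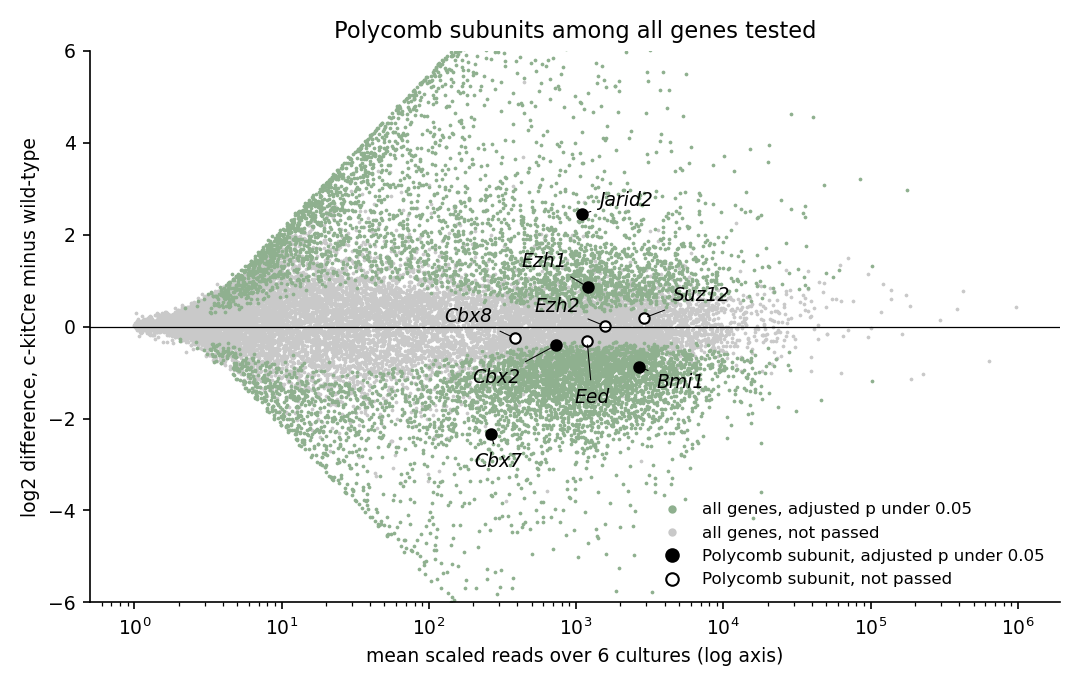
Log2 difference (labelled c-kitCre minus labelled wild-type) against the mean scaled reads over 6 cultures (log axis) for all 24151 genes tested, with the 9 Polycomb genes as black (adjusted p under 0.05) or open (not passed) circles. Genes beyond a log2 difference of 6 in either direction are not drawn. Jarid2 at 2.45 and Cbx7 at -2.33 lie outside the grey band of genes that did not pass, and Ezh2 lies on the zero line.

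**Figure D2:**
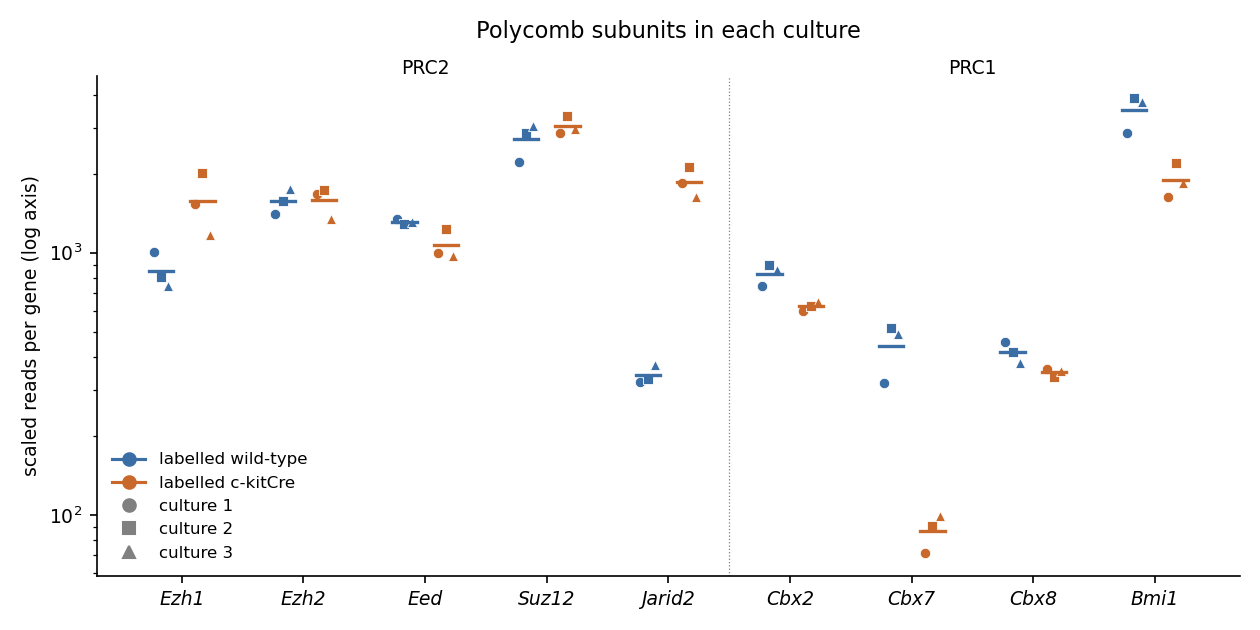
Scaled reads (log axis) of the 9 Polycomb genes in each culture, blue for cultures labelled wild-type and orange for those labelled c-kitCre, with the culture number as the marker shape and a line at each group's mean. The groups separate in 7 genes and overlap in Ezh2 and Suz12.

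Jarid2 and Cbx7 are shown with the start of their genes because they changed most and in opposite directions, and Ezh2 and Suz12 because they were the 2 genes with an E2F word there. Each window holds 250 bases before and 50 after a RefSeq transcription start (GRCm38.p6, the mm10 assembly), printed 5′ to 3′ on the strand of the gene. Capitals mark E2F words (TTTCCCGC, TTTCGCGC, TTTGCCGC or TTTGGCGC) and CCAAT boxes (CCAAT), each searched on both strands, so that ATTGG is a CCAAT box on the other strand. Jarid2 has a second window of RefSeq, at chr13:44731021-44731320 on the plus strand, which is not printed. The Cbx7 window lies well inside the interval given for that gene below, whose start on the minus strand is at 79971119. Both Jarid2 windows also lie inside the interval of that gene, which starts at 44729474.
Jarid2, chr13:44730524-44730823, plus strand: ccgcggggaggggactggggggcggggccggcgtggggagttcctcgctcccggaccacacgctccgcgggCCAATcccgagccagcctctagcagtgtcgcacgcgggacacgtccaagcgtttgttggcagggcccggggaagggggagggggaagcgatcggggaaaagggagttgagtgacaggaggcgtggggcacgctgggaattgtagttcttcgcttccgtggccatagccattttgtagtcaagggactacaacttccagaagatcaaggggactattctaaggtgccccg
Cbx7, chr15:79932597-79932896, minus strand: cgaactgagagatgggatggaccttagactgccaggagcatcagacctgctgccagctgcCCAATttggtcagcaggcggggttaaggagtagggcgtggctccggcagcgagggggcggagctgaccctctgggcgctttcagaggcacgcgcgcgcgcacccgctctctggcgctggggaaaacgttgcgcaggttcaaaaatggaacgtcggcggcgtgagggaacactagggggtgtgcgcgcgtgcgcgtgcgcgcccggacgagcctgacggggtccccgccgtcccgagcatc
Ezh2, chr6:47594981-47595280, minus strand: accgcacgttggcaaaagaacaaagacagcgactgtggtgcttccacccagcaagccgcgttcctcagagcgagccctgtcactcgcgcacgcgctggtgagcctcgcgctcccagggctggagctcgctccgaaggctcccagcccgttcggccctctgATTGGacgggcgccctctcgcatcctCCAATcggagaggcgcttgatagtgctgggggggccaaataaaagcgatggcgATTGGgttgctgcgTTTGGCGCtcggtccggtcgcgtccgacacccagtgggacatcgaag
Suz12, chr11:79992856-79993155, plus strand: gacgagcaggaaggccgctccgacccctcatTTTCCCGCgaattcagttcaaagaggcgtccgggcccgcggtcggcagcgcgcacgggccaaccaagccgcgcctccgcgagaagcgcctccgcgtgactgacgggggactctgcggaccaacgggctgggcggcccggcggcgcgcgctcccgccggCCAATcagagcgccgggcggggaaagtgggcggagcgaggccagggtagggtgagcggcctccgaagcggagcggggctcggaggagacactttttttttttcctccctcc

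Windows were held for 8 of the 9 genes, and Cbx2 had none. An E2F word occurred once in Ezh2 and once in Suz12, and in none of the windows of Bmi1, Eed, Ezh1, Cbx8, Jarid2 and Cbx7. Over all 32851 promoter windows, 2.26% held such a word. Ezh2 carried 3 CCAAT boxes, Cbx8 2, and Suz12, Eed, Cbx7 and each Jarid2 window 1, whereas 37.4% of all windows held at least 1. The 9 windows held 17 (Eed) to 41 (Suz12) CpG dinucleotides, against a median of 7 over all windows, and 33 in Cbx7 and 24 in the Jarid2 window shown. A TATA box (TATAAA, in 13.6% of all windows) was found only in the second Jarid2 window. These letters are a description of the windows.

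Among the PRC2 subunits, the catalytic pair differed in that Ezh1 rose and Ezh2 did not pass, and the difference between their changes was not tested. Ezh1 (ENSMUSG00000006920, chr11:101191115-101226463, minus strand), the gene of the weaker methyltransferase that predominates in non-dividing tissues, had 1008, 805 and 748 scaled reads in wild-type cultures 1, 2 and 3 and 1527, 2006 and 1169 in c-kitCre cultures 1, 2 and 3. All 3 c-kitCre cultures lay above all wild-type ones, with culture 2 highest and culture 3 close to the wild-type range. The means of 854 ± 137 and 1567 ± 420 gave a log2 difference of 0.85 ± 0.23 (SE, limma adjusted p = 0.0300). The call was lost on omitting wild-type culture 2 (0.82, with an adjusted p of 0.109), its culture 3 (0.76, 0.109), c-kitCre culture 1 (0.86, 0.0916) or its culture 2 (0.66, 0.0709), without the filter (adjusted p = 0.0798) and after centring on all genes (0.50, adjusted p = 0.128). Of 21 genes tested within 150 kb of Ezh1, 3 rose and 5 fell, close to the 35.5% of all genes that passed. The nearest, Cntnap1, which ends 391 bases before the Ezh1 interval, rose from 76.7 ± 6.73 to 286 ± 21.2 scaled reads (limma adjusted p = 0.000917).

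Ezh2 (ENSMUSG00000029687, chr6:47530139-47595341, minus strand), the main methyltransferase of dividing cells, had 1399, 1573 and 1745 scaled reads in the wild-type cultures. The c-kitCre cultures had 1679, 1734 and 1345. The groups overlapped over most of their range, and the log2 difference was 0.01 ± 0.15 (SE, limma adjusted p = 0.966). Its sign flipped to -0.34 under centring on all genes and to -0.01 under scaling to the summed raw values, and no alternative passed the threshold. The ratio of Ezh2 to Ezh1 was 1.39, 1.95 and 2.33 in the wild-type cultures and 1.10, 0.865 and 1.15 in the c-kitCre cultures. These ratios do not depend on the scaling between cultures, and the groups did not overlap. Per kilobase of the longest transcript, Ezh1 made up 26.6% ± 5.22 of the summed Ezh1 and Ezh2 level in the wild-type cultures and 39.2% ± 3.68 in the c-kitCre cultures (SD, n = 3). The sum itself was 767 ± 32.7 and 942 ± 170.4 scaled reads per kilobase, with overlap between the groups.

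Eed and Suz12, which both methyltransferases require, did not pass the test. Eed (ENSMUSG00000030619, chr7:89954654-89980983, minus strand) had 1349, 1284 and 1304 scaled reads in the wild-type cultures. In the c-kitCre cultures it had 998, 1228 and 974. All 3 c-kitCre values lay below the wild-type ones, which were the least spread of the 9 genes with a coefficient of variation of 2.55%. The log2 difference was -0.31 ± 0.13 (SE, limma adjusted p = 0.116), and Eed passed when c-kitCre culture 2 was left out (-0.41, adjusted p = 0.0102) and after centring on all genes (-0.66, adjusted p = 0.00962). Suz12 (ENSMUSG00000017548, chr11:79993106-80034123, plus strand) had 2213, 2856 and 3048 scaled reads in the wild-type cultures against 2856, 3333 and 2968 in the c-kitCre cultures. The groups overlapped, and the log2 difference of 0.18 ± 0.16 (SE, limma adjusted p = 0.402) turned to -0.17 under centring on all genes. The ratio of Eed to Suz12 went from a range of 0.428 to 0.610 to a range of 0.328 to 0.368, without overlap and without a test. Per kilobase, the 4 core genes summed to 2021 ± 116 and 2156 ± 276 scaled reads, and within that sum Ezh1 took 10.1% and 17.1%, Ezh2 27.9% and 26.4%, Eed 31.5% and 23.9%, and Suz12 30.5% and 32.5%. Exons of Eed, Ezh2 and Suz12 overlap an annotated RNA on the other strand over 261, 174 and 178 bases (6.82%, 2.61% and 3.60% of their exon length), and the use of strand in counting is not given.

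Jarid2 rose more than any of the other 8 genes. Jarid2 (ENSMUSG00000038518, chr13:44729474-44921643, plus strand) had 322, 329 and 371 scaled reads in the wild-type cultures. The c-kitCre cultures had 1843, 2124 and 1630.4. The groups lay far apart, and each was tightly clustered (341 ± 26.6 and 1866 ± 248). The log2 difference was 2.45 ± 0.14 (SE, limma adjusted p = 0.000149), and it kept its call under all 17 alternatives, from 2.09 to 2.66 with adjusted p of at most 0.00313. The authors' deposited table, which lists genes by a signed fold from 2.5 upward, gives Jarid2 a fold of 5.45 in the same direction. The ratio of Jarid2 to Suz12 went from 0.128 ± 0.016 to 0.611 ± 0.053, and that of Jarid2 to Mtf2, an accessory subunit of the other class of PRC2, from 0.186 ± 0.041 to 1.05 ± 0.20. Dtnbp1, the gene 432 bases beyond the end of Jarid2 on the other strand, fell by 0.59 on the log2 scale (limma adjusted p = 0.0164).

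The accessory subunits sort PRC2 into a class with JARID2 and AEBP2 and a class with a Polycomb-like protein (PHF1, MTF2 or PHF19), which may also hold EPOP. Of the 8 other PRC2 genes on the list, 7 were tested, 1 rose and 2 fell, where 35.5% of all genes passed. Epop rose from 0.755 ± 0.38 to 68.8 ± 16.8 scaled reads, a log2 difference of 3.94 ± 0.27 (limma adjusted p = 0.000230) that is measured against the floor, since the wild-type cultures lay under it. Phf19 fell from 1307 ± 47.5 to 532 ± 178 (-1.36 ± 0.27, limma adjusted p = 0.0106), with 330.2 scaled reads in c-kitCre culture 2, and its call was lost without wild-type culture 2 (adjusted p = 0.0524). Rbbp7, a histone-binding subunit shared with other complexes, fell from 7372 ± 276 to 5762 ± 242 (-0.36 ± 0.11, limma adjusted p = 0.0470), a call lost when wild-type culture 2 or 3 or c-kitCre culture 1 or 3 was left out (adjusted p of 0.0698 to 0.124) and under 2 of 4 other scalings. Aebp2, Mtf2, Phf1 and Rbbp4 did not pass, and Ezhip lay under the floor. Per kilobase, Jarid2 went from 2.78% ± 0.18 to 16.8% ± 0.85 of the sum over Jarid2, Aebp2, Mtf2, Phf1 and Phf19, while Phf19 went from 23.8% ± 0.79 to 10.9% ± 4.16. That sum was 1468 ± 33.1 and 1325 ± 109 scaled reads per kilobase.

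**Figure D3:**
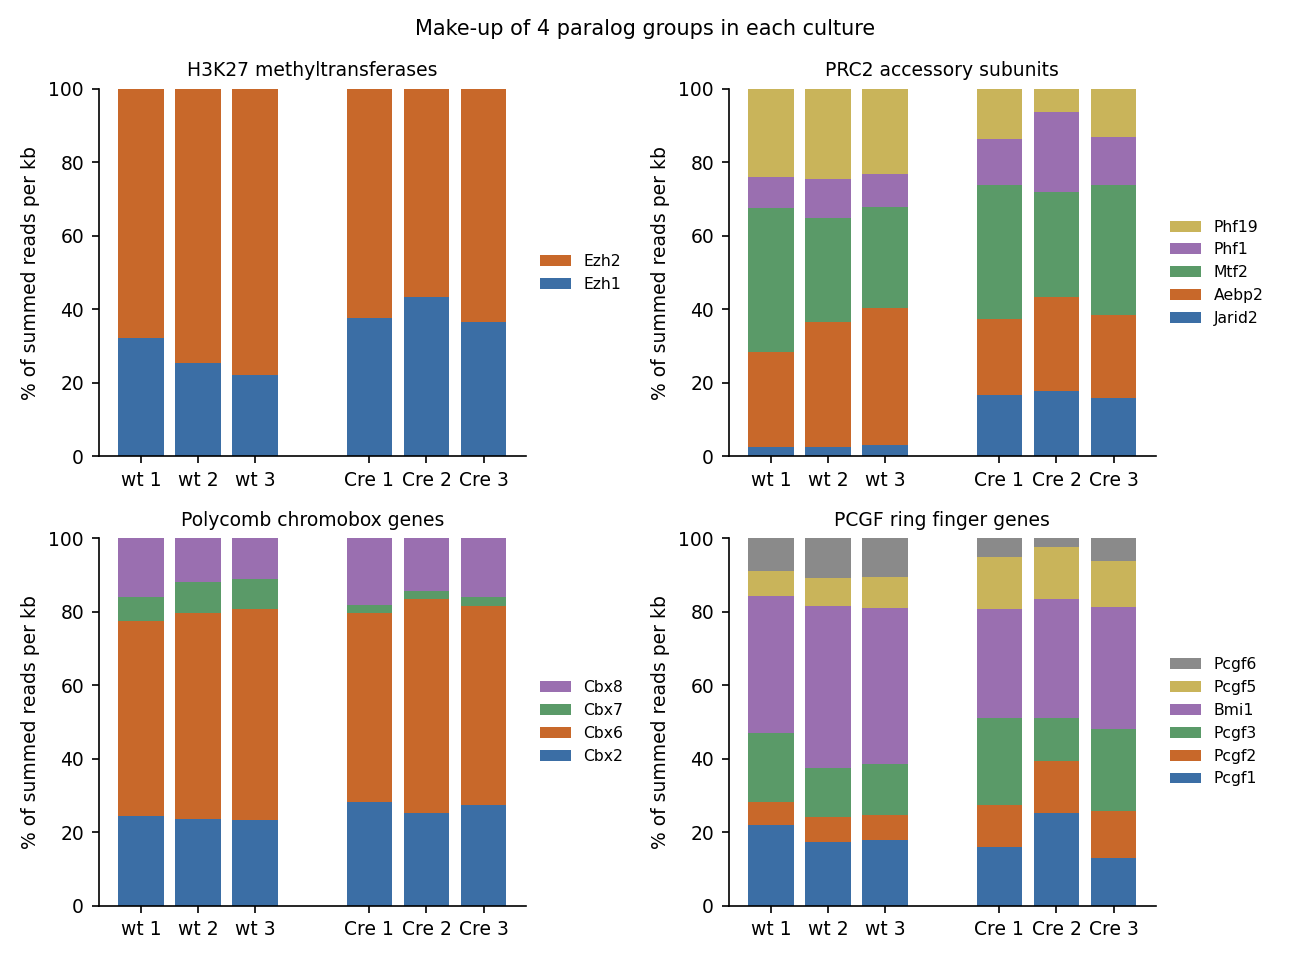
Share of each gene (percent of the summed scaled reads per kilobase of longest transcript) in each of the 6 cultures, for the methyltransferases, the PRC2 accessory subunits, 4 Polycomb chromobox genes and the PCGF genes (wt, labelled wild-type and Cre, labelled c-kitCre). Jarid2 widens from 2.66% to 2.98% in the wild-type bars to 16.0% to 17.7% in the c-kitCre bars, and Cbx7 narrows from 6.59% to 8.59% to 2.13% to 2.61%.

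Among the PRC1 subunits, all 4 genes had lower means in the cultures labelled c-kitCre, under every scaling tried. Of them 3 passed the test, where 51% of all genes averaging 200 scaled reads or more passed. Only Cbx7 and Bmi1 passed under every scaling. Under centring on genes that average 50 scaled reads or more, the log2 difference was -0.04 for Cbx8 and -0.20 for Cbx2, and neither passed. Cbx7 (ENSMUSG00000053411, chr15:79915807-79971119, minus strand), the chromobox gene that predominates in mouse embryonic stem cells, had 318, 516 and 490.0 scaled reads in the wild-type cultures. In the c-kitCre cultures it had 71.5, 90.6 and 98.6. All c-kitCre cultures lay far below the wild-type range, and wild-type culture 1 stood below the other two. The means of 441 ± 107.5 and 86.9 ± 13.9 gave a log2 difference of -2.33 ± 0.27 (SE, limma adjusted p = 0.00129). The call held under all 17 alternatives, from -2.68 to -2.11 with adjusted p of at most 0.0126, and the authors' deposited table gives a fold of 5.01 toward wild-type. On the other strand, the last 100 bases of Apobec3 overlap Cbx7 exons (1.54% of their length), and whether strand was used in counting is not given. Apobec3 stood at 1467 ± 239 and 1119 ± 80.3 scaled reads (limma adjusted p = 0.111). Pdgfb, a growth factor gene 24.8 kb from the Cbx7 interval given here, fell from 407 ± 119 to 9.51 ± 8.22 scaled reads (limma adjusted p = 0.00112).

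Bmi1 (ENSMUSG00000026739, chr2:18677018-18686629, plus strand) had 2854, 3871 and 3767 scaled reads in the wild-type cultures, the highest level of the 9 genes per kilobase of transcript (973 ± 156). The c-kitCre cultures had 1633, 2199 and 1846. No values overlapped, and culture 1 was the lowest of each group. The means of 3498 ± 560 and 1893 ± 286 gave a log2 difference of -0.88 ± 0.18 (SE, limma adjusted p = 0.0104), and among 17 alternatives the call was lost only on omitting wild-type culture 2 (-0.80, adjusted p = 0.0510). Commd3, whose annotated end lies 787 bases before Bmi1 on the same strand, stood at 1707 ± 467 and 1863 ± 155 (limma adjusted p = 0.580).

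Cbx2 and Cbx8 lie 5.04 kb apart on chromosome 11. Cbx2 (ENSMUSG00000025577, chr11:119022962-119031270, plus strand), a chromobox gene whose protein can compact chromatin, had 744, 893 and 855 scaled reads in the wild-type cultures. The c-kitCre cultures had 599, 624 and 649.9. The groups did not overlap, and the means of 831 ± 77.7 and 624 ± 25.7 gave a log2 difference of -0.41 ± 0.12 (SE, limma adjusted p = 0.0462). This call was lost under 14 of 17 alternatives, among them the omission of every culture but wild-type 1 (adjusted p of 0.0564 to 0.150) and quantile normalization (-0.20, adjusted p = 0.321). Cbx8 (ENSMUSG00000025578, chr11:119036305-119040969, minus strand), which encodes a further H3K27me3 reader, had 455, 419 and 379.9 scaled reads in the wild-type cultures and 361, 335 and 354 in the c-kitCre cultures. Its groups did not overlap either, and the log2 difference of -0.25 ± 0.14 (SE, limma adjusted p = 0.215) did not pass except after centring on all genes (-0.61, adjusted p = 0.0175). Cbx2 passed and its neighbour Cbx8 did not, and the difference between their changes was not tested.

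Cbx6, a further Polycomb chromobox gene, had the highest level per kilobase of Cbx2, Cbx6, Cbx7 and Cbx8. It fell from 4012 ± 603 to 2628 ± 374 scaled reads (-0.61 ± 0.17, limma adjusted p = 0.0350), a call lost when wild-type culture 2 or 3 or c-kitCre culture 1 or 3 was left out (adjusted p of 0.0968 to 0.127) and under 3 of 4 other scalings. Summed per kilobase, these 4 chromobox genes went from 919 ± 106 to 611 ± 50.1 scaled reads (SD, n = 3) without overlap. Within that sum, Cbx7 went from 7.85% ± 1.10 to 2.34% ± 0.25 and Cbx2 from 23.8% ± 0.65 to 26.9% ± 1.64, both without overlap. The shares of Cbx6 (55.5% and 54.6%) and Cbx8 (12.9% and 16.1%) overlapped. The ratio of Cbx7 to Cbx8 was 0.699, 1.23 and 1.29 in the wild-type cultures and 0.198, 0.270 and 0.278 in the c-kitCre cultures.

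Among the PCGF genes, which set the type of PRC1, Pcgf6 fell from 671 ± 123 to 205 ± 74.5 scaled reads (-1.77 ± 0.33, limma adjusted p = 0.00779). Pcgf2, the closest paralog of Bmi1, stood at 389 ± 52.9 and 533 ± 115 (limma adjusted p = 0.146), Pcgf1 at 408 ± 18.5 and 281 ± 136, Pcgf3 at 2724 ± 289 and 2361 ± 599, and Pcgf5 at 1172 ± 209.7 and 1447 ± 237, and none of these passed. Per kilobase, Bmi1 was the largest PCGF contributor in both groups, with 41.3% ± 3.43 of the sum in the wild-type cultures and 31.9% ± 1.95 in the c-kitCre cultures. The share of Pcgf2 was 6.65% ± 0.38 and 12.9% ± 1.28. Of the ubiquitin ligase genes, Ring1 fell from 509 ± 33.9 to 251 ± 35.8 scaled reads (-1.03 ± 0.17, limma adjusted p = 0.00468), whereas Rnf2 stood at 1931 ± 417 and 1942 ± 540 (limma adjusted p = 0.987). Ring1 made up 25.3% ± 4.95 of the pair per kilobase in the wild-type cultures and 14.6% ± 4.85 in the c-kitCre cultures, without overlap.

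The other canonical PRC1 genes moved in both directions. Of 10 tested, 3 rose and 4 fell, where 35.5% of all genes passed, and 51% of those averaging 200 scaled reads or more. Scml2 rose from 175 ± 40.4 to 535 ± 60.5 scaled reads (limma adjusted p = 0.00258), Scmh1 from 339 ± 56.4 to 946 ± 121 (adjusted p = 0.00159) and Phc3 from 2565 ± 121 to 4174 ± 863 (adjusted p = 0.0211). The Phc3 call was lost without wild-type culture 1, 2 or 3 or c-kitCre culture 1 (adjusted p of 0.0508 to 0.0852) and under centring on all genes. Scml4, at low levels, fell from 35.2 ± 3.88 to 13.6 ± 3.26 (adjusted p = 0.0141, and 0.0518 without wild-type culture 2), beside Ring1 and Cbx6. Phc1, outside the rule for named genes and added after its value was seen, fell from 1269 ± 45.1 to 838 ± 41.6 (limma adjusted p = 0.00635). The Scm and Phc genes all encode SAM domain proteins and did not move in 1 direction, since Scml2, Scmh1 and Phc3 rose, Scml4 and Phc1 fell, and Phc2 stood at 2313 ± 622 and 1571 ± 190 without passing (limma adjusted p = 0.133). Per kilobase, Phc3 went from 21.1% ± 2.90 to 38.7% ± 2.91 of the 3 Phc genes.

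Variant PRC1 complexes hold RYBP or YAF2 in place of a chromobox protein and act without the PRC2 mark. Of 17 genes tested, 4 rose and 4 fell, where 35.5% of all genes passed, and 51% of those averaging 200 scaled reads or more. Auts2, a partner of PCGF3 and PCGF5 in complexes linked to gene activation, rose from 14.9 ± 1.59 to 318 ± 35.2 scaled reads (4.42 ± 0.26, limma adjusted p = 0.000144). Bcorl1 rose from 312 ± 7.49 to 913 ± 118 (1.54 ± 0.14, limma adjusted p = 0.000574). Kdm2b, whose protein binds unmethylated CpG islands in the PCGF1 complex, rose from 805 ± 154 to 1305 ± 274 (limma adjusted p = 0.0495), a call lost when any of the 6 cultures was left out (adjusted p of 0.0596 to 0.140) and under 2 of 4 other scalings. The fourth, Bcor, named after its value was seen, went from 1384 ± 91.5 to 2080 ± 242 (0.58 ± 0.13, limma adjusted p = 0.0156), and lost its call without wild-type culture 2 or 3 or c-kitCre culture 1 or 3 (adjusted p of 0.0540 to 0.0679) and under centring on all genes.

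The largest falls of the variant list were E2f6, from 1618 ± 25.3 to 295 ± 18.5 scaled reads (-2.46 ± 0.11, limma adjusted p = 7.82e-05), and L3mbtl2, from 1546 ± 33.1 to 369 ± 130.2 (-2.14 ± 0.29, limma adjusted p = 0.00248). E2F6 is a repressor of the E2F family and L3MBTL2 a chromatin-binding protein. Pcgf6, given above, was the next, and the fourth was Wdr5, named after its value was seen, from 2978 ± 185 to 1075 ± 81.5 (limma adjusted p = 0.000337). WDR5 is shared with Trithorax complexes. These 4 calls held when any culture was left out. Mga, which encodes a DNA-binding protein of variant PRC1 and is named after its value was seen, stood at 8964 ± 246 and 6943 ± 761 (-0.37 ± 0.13, limma adjusted p = 0.0680).

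**Figure D4:**
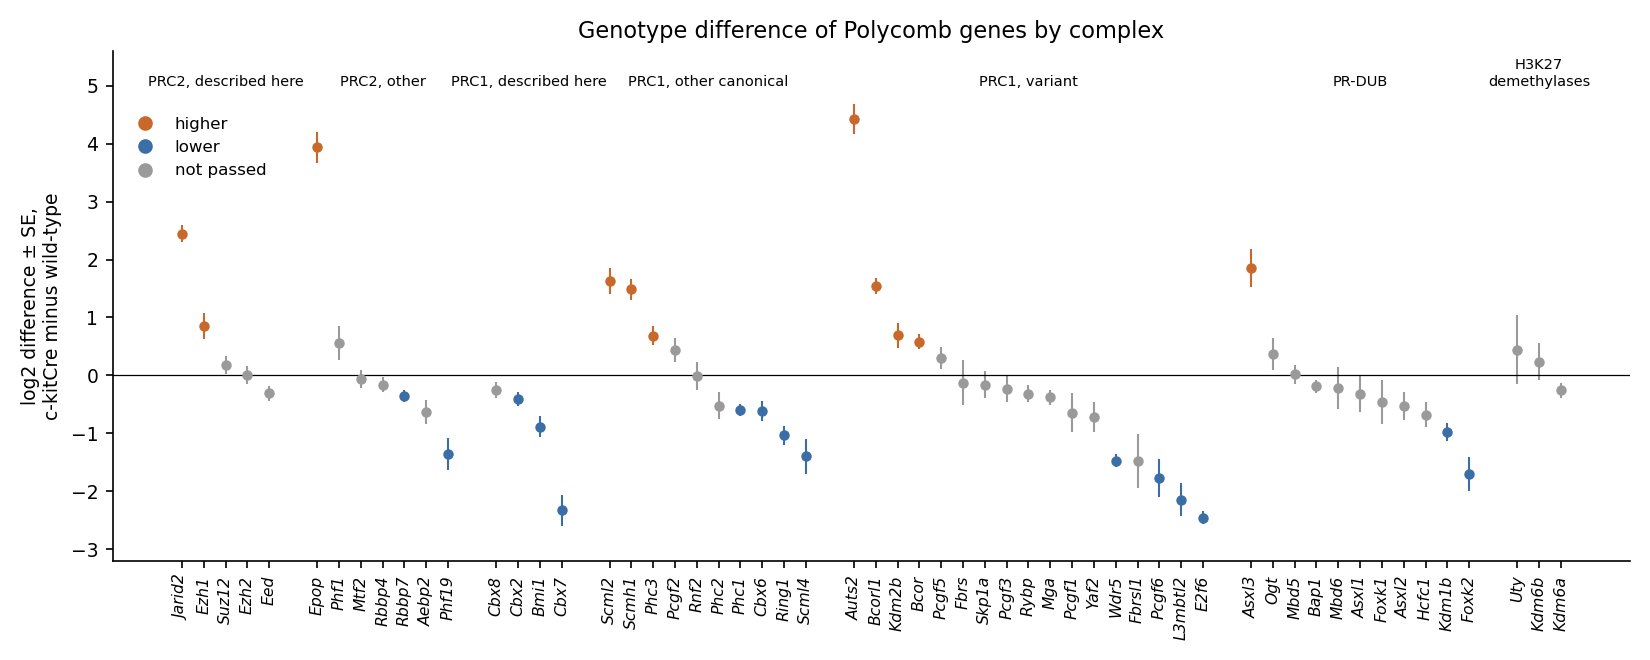
Log2 difference ± SE (labelled c-kitCre minus labelled wild-type, limma, n = 3 per group) of the 9 Polycomb genes and of 48 other genes by complex, orange for higher, blue for lower and grey for not passed. Jarid2, Epop and Auts2 stand highest in their groups, and Cbx7, Phf19, E2f6 and Foxk2 lowest.

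Genes that oppose or remove Polycomb marks were measured as well. Among 11 genes of the Polycomb deubiquitinase (PR-DUB), which takes ubiquitin off histone H2A, 1 rose and 2 fell. Asxl3 rose from 11.98 ± 0.95 to 44.6 ± 13.7 scaled reads (limma adjusted p = 0.00638), Foxk2 fell from 3661 ± 967 to 1136 ± 359 (adjusted p = 0.00622) and Kdm1b from 777 ± 126 to 393 ± 13.5 (adjusted p = 0.00456). Of the 3 genes for H3K27 demethylases and their Y-linked homolog, 0 passed in limma and 0 had an unadjusted p under 0.05. Kdm6a stood at 2295 ± 194 and 1921 ± 202, Kdm6b at 857 ± 299 and 973 ± 176, and Uty at 13.8 ± 5.95 and 19.6 ± 9.98 scaled reads. Over the 48 other Polycomb genes tested, of 49 looked up, 9 rose, 12 fell and 27 did not pass, with a median log2 difference of -0.25. These 21 of 48 are 43.8%, beside 35.5% of all genes, but of the 42 that average 200 scaled reads or more 17 passed (40.5%), beside 51% of all genes in that range. Of the 21 calls, 14 held when any culture was left out.

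A list of 17 genes taken as Polycomb targets, without binding data from these cultures, was looked at beside the subunits. Of 17, 15 were tested, 9 rose and 3 fell, where 35.5% of all genes tested passed (16.2% higher and 19.3% lower). The median log2 difference of the list was 1.58, beside 0.04 over all genes. The list was chosen with earlier results of these data known, so these values are a description. A link to the subunit changes was not tested. Of the 8 that average 200 scaled reads or more 6 passed, beside 51% of all genes in that range. Gata4, Tbx5, Isl1 and Ryr2 of this list are also counted above as progenitor or cardiomyocyte markers, all 4 of which rose. Tbx5, a cardiac transcription factor, went from 6.499 ± 1.72 to 278 ± 42.9 scaled reads (limma adjusted p = 0.000144), Bmp2 from 0.843 ± 0.73 to 74.2 ± 25.3 (adjusted p = 0.000437) and Gata6 from 96.6 ± 28.1 to 1431 ± 136 (adjusted p = 0.000159). Bmp2 lay under the floor in the wild-type cultures. Eya1 fell from 577 ± 59.1 to 2.78 ± 2.29 (adjusted p = 5.26e-05), Pax6 from 354 ± 16.7 to 198 ± 24.4 (adjusted p = 0.0102) and Adrb3, at low levels, from 7.67 ± 1.79 to 2.20 ± 0.61 (adjusted p = 0.0174). The Adrb3 call was lost without wild-type culture 2 or any c-kitCre culture (adjusted p of 0.0566 to 0.0670). Cdkn2a and Cdkn2b, the locus that BMI1 and CBX7 are best known to repress, are named here after their values were seen. Cdkn2a had 2888, 1468 and 1386 scaled reads in the wild-type cultures and 987, 1545 and 878 in the c-kitCre cultures (limma adjusted p = 0.167). Cdkn2b had 1669, 742 and 666 against 1702, 1905 and 1516 (limma adjusted p = 0.114). Wild-type culture 1 was the highest of its group for both genes, and neither passed.

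Among RNAs linked to Polycomb, 4 of 5 were in the table. Xist, which recruits both complexes to the inactive X chromosome, fell from 35379 ± 4291 to 48.4 ± 17.5 scaled reads (limma adjusted p = 4.45e-05), and Meg3, an imprinted RNA reported to bind PRC2, rose from 15.7 ± 4.08 to 1832 ± 425 (adjusted p = 7.03e-05). Airn stood at 295 ± 21.8 and 233 ± 12.2 (adjusted p = 0.145). Hotair had 0.976, 0.632 and 0.825 scaled reads in the wild-type cultures and 0.866, 39.4 and 2.11 in the c-kitCre cultures, so that only c-kitCre culture 2 lay above the floor. Xist shares its locus with an antisense gene, and with the use of strand not given the reads of both cannot be told apart. The sex of the animals is not stated, and Y-linked Uty stood at 13.8 ± 5.95 and 19.6 ± 9.98 scaled reads. A difference in sex or X inactivation between the groups cannot be told apart from the genotype label. That limit also holds for X-linked genes named above, such as Rbbp7, Scml2, Bcor, Bcorl1 and Kdm6a.

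The genes most like Ezh1 over the 6 cultures, among 11110 named protein-coding genes averaging 50 scaled reads or more, were Ypel5, Litaf and Vps35. Their log2 values, centred on each gene's mean, departed from those of Ezh1 by a root mean square of 0.0396, 0.0472 and 0.0543. The genes most like Ezh2 were Lpp (0.0432), Tln1 (0.0601) and Trim59 (0.0700). These values describe 6 cultures of 2 groups and carry no test. Within groups, the coefficient of variation ran from 2.55% (Eed) to 24.4% (Cbx7) in the wild-type cultures and from 3.82% (Cbx8) to 26.8% (Ezh1) in the c-kitCre cultures.

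**Figure D5:**
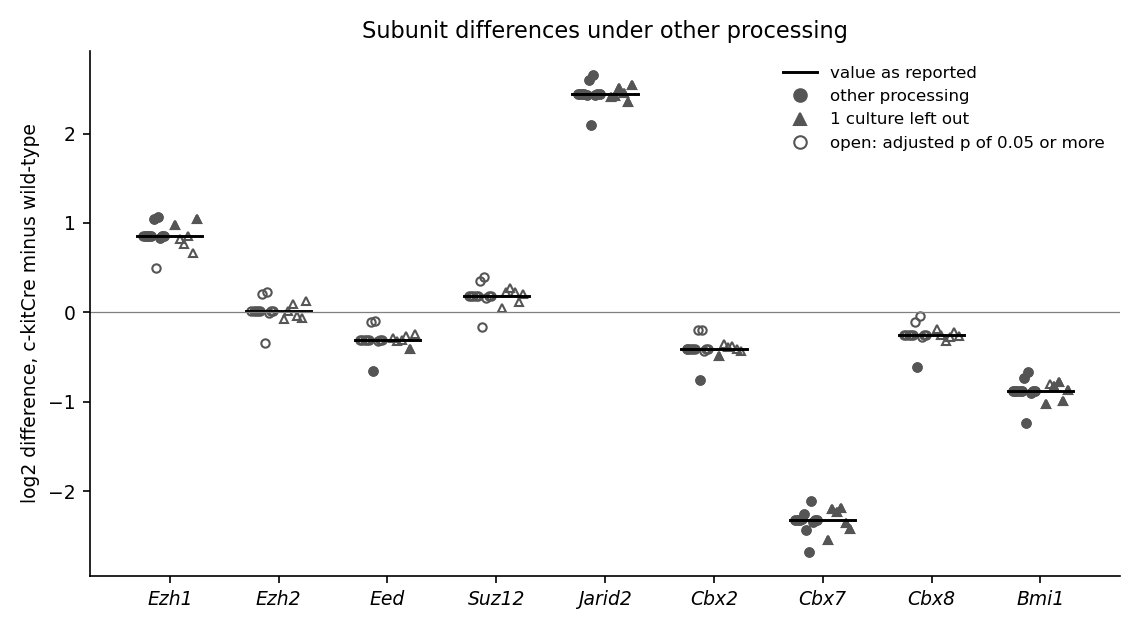
Log2 difference (labelled c-kitCre minus labelled wild-type) of each of the 9 Polycomb genes as reported (line), under 11 other ways of processing (circles) and with 1 culture left out (triangles), open where the adjusted p was 0.05 or more. Every point of Jarid2 and Cbx7 is filled, Ezh2 straddles 0, and Cbx2 is mostly open.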

How the data were processed

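RNA of 6 cultures was sequenced as 12 libraries after depletion of ribosomal RNA, per the labels' protocols. The submitters' processing notes name DESeq and the build mm10; not given in the sources used here are aligner, annotation and use of strand. The deposited raw columns are a signal per gene, not whole counts, that merges 2 libraries of a culture. The deposited normalized columns hold log2 values. Each is the logarithm of the raw value after scaling by a culture factor (0.825 to 1.52), with anything under 4.41 scaled reads set to that floor, less a term of its gene; this form was found from the columns themselves (largest deviation 2.04e-06 over 8369 genes). The authors' signed fold of the second table is a deposited score and is used only where named. Raw values summed to 22371439 to 35963488 per culture, and since counts per library are not held, no counting interval is given.

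The test was limma 3.58.1 (R 4.3.3; lmFit, eBayes with trend) on log2 of floored scaled reads, 3 cultures against 3, without covariates, with Benjamini-Hochberg adjustment. Genes averaging less than 1 scaled read, and those never above the floor, were not tested. Levels per kilobase use the longest transcript of GENCODE M21, to which 32874 of 34174 gene IDs matched, and coordinates are from it (mm10). Promoter windows are from RefSeq. Tables and figures used Python 3.11.15, pandas 2.3.3, numpy 2.4.6 and matplotlib 3.10.9.

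The 9 genes and all gene lists were chosen with earlier results of these data known. All 9 are given in every culture. From other lists, genes are named in full up to 5, otherwise the 3 largest rises and 3 largest falls that passed, and paralogs of the 9, apart from some genes that are not reported here and enter no list or sum. Alternatives were other filters (none, or a mean of 10), pseudocounts of 0.1, 1 and 5 without the floor, 4 scalings, no trend, a replicate block and leaving out each culture.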

Additional observations from a re-analysis of the deposited data

How the results depend on the processing

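Jarid2 and Cbx7 kept their calls under all 17 alternatives, Bmi1 under 16, Ezh1 under 11 and Cbx2 under 3. Of the 9 genes, 5 passed as reported, 2 on omitting wild-type culture 2, 3 on omitting its culture 3, and 3 on omitting c-kitCre culture 1, a range of 2 to 5 over the 6 omissions, and 4 to 6 under the other settings. All genes gave 8578 calls, and 5685 to 9061 with 1 culture left out, the lowest without wild-type culture 2. Other Polycomb genes gave 21 calls, and 14 to 24 with 1 culture left out. Each omission leaves 1 culture fewer, but without wild-type culture 1 the calls over all genes rose to 9061. Why the calls changed was not tested. Ezh2 reversed to -0.34 under centring on all genes, to -0.01 (-0.0101) under scaling to the summed raw values, and ran from -0.072 to 0.12 with 1 culture left out (-0.072 without wild-type culture 1, -0.036 and -0.059 without cultures 1 and 2 of the c-kitCre group). Suz12 reversed to -0.17 under centring on all genes, which lowers every log2 difference alike. Without length correction, Ezh1 made up 35.2% and 49.3% of the Ezh pair, still without overlap.

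Samples that share a number had correlations of 0.124, -0.00921 and 0.190 (numbers 1, 2 and 3) between their deviations from the group means. Pairs of unlike number ran from -0.191 to 0.161. With 3 cultures per group these values cannot decide whether like numbers are paired, and the labels do not say. With the replicate block, 8123 of all genes, 4 of the 9 Polycomb genes (all but Cbx2, adjusted p = 0.0819) and 21 other Polycomb genes passed. Depth limits the values under the floor of 4.41 scaled reads, where none of the 9 genes lies.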

Other observations

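Genes outside the Polycomb complexes that act on chromatin or drive the cell cycle were measured in the same fit. In it 35.5% of all genes tested passed, and 51% of those averaging 200 scaled reads or more. Of 10 Trithorax-type methyltransferase genes, 1 rose: Nsd3, from 1784 ± 384 to 4383 ± 581 scaled reads (limma adjusted p = 0.00376). Of 13 SWI/SNF remodeller genes, Smarca2, the ATPase gene usually high in differentiated cells, rose from 458.1 ± 162 to 1975 ± 194 (adjusted p = 0.00135), Smarcd1 fell from 1337 ± 291 to 595 ± 50.8 (adjusted p = 0.00562), and 11 did not pass. Of the 3 HP1 genes, chromobox relatives of the Cbx genes that read a different histone mark, Cbx5 fell from 23506 ± 1244 to 9139 ± 597 (adjusted p = 0.000821), whereas Cbx1 stood at 2246 ± 311 and 2038 ± 205 and Cbx3 at 3491 ± 575 and 2743 ± 124.

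Of 12 E2F and pocket protein genes, 3 rose and 4 fell. Among all genes tested 35.5% passed, and 51% of those averaging 200 scaled reads or more. E2f2 fell from 939 ± 36.4 to 124 ± 27.4 (adjusted p = 0.000247), E2f3 from 1138 ± 213 to 379 ± 92.5 (adjusted p = 0.00385) and the pocket protein gene Rbl1 from 2729 ± 149 to 1217 ± 302 (adjusted p = 0.00604), while Rbl2 rose from 1229 ± 177 to 2673 ± 455 (adjusted p = 0.00423). Rb1 rose from 404 ± 104 to 673 ± 78.4 (adjusted p = 0.0465, lost without wild-type culture 2 or 3 or any c-kitCre culture, 0.0738 to 0.138, and under 2 of 4 other scalings) and E2f5 from 499 ± 23.1 to 741 ± 43.9 (adjusted p = 0.0122, and 0.0526 without wild-type culture 2; lost under centring on all genes). Of 20 proliferation genes, 5 rose and 7 fell, beside the same shares of all genes. Ccnb2, Top2a and Aurkb, which act in mitosis, rose by 1.17, 0.91 and 0.87 on the log2 scale, calls that were lost in at least 4 of 6 omissions of a culture (adjusted p of 0.0506 to 0.158), those of Top2a and Aurkb also under centring on all genes. Other mitosis genes of that list are named after their values were seen. Cdk1 rose (0.66, a call lost in 4 of 6 omissions and under centring on all genes). Ccnb1 (0.22), Aurka (0.16), Plk1 (0.29), Cdc20 (0.18), Bub1 (-0.015) and Birc5 (-0.30) did not pass. Mcm2, Ccne1 and Pcna, which act at the start and during DNA replication, fell by 1.75, 1.70 and 1.57 and kept their calls in every omission. The remaining genes of that list are also named after their values were seen. Ccne2 (-1.02) fell and kept its call in every omission. Rrm2 (-1.33), Mcm5 (-0.66) and Mcm3 (-0.44) fell, calls lost in 4, 2 and 3 of 6 omissions. Mki67 rose (0.83), a call lost in 4 of 6 omissions and under centring on all genes. Tyms (-0.26) and Ccna2 (0.52) did not pass.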
